A study of Mus musculus with 9 samples.

Results

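Chemokine receptors are the surface proteins through which a T cell reads chemokine gradients and so enters, crosses and stays in a tissue. The 8 receptor genes described here, Ccr1, Ccr2, Ccr3, Ccr4, Ccr8, Cxcr3, Cxcr4 and Cxcr6, are those known from effector T cells and from homing to inflamed lung. They were chosen by name, with earlier results of these data known, each by the probe sets that name it alone. Each had 1 such probe set, and they are 8 of 19937 genes measured. RNA of sorted mouse CD4 T cells of 3 groups was hybridised to Affymetrix Mouse Gene 1.0 ST arrays, 9 in all and 3 a group.

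Naive cells, CD4+ CD44- by the markers given here, were spleen cells of mice given the sham treatment, taken at day 29. Acute Th2 cells, CD4+ CD69+ ST2+, came from the lung at day 29, after sensitisation and 1% ovalbumin aerosol on 3 days in a row. Chronic Th2 cells, with the same surface markers, were isolated from lungs on day 104, once aerosol had been repeated for 12 weeks. Sensitisation in both Th2 groups was by injection into the peritoneum of 10 µg ovalbumin in 1.5 mg aluminium hydroxide on days 1, 14 and 21. By the labels, cells of all 3 groups were stimulated through CD3 and CD28 for 8 h after the sort and before RNA was taken. Lungs were perfused and digested with enzymes before the sort, and CD4 cells were enriched with beads. The labels do not give strain, sex, age or any pooling of animals. Titles call the replicates biological, with no word on separate animals, so each p measures the spread between these samples. Tissue and cell state cannot be told apart in the comparisons with naive cells, nor can day and stage between acute and chronic Th2 cells.

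All 8 receptors pass through the membrane in a row of helices and signal through inhibitory G proteins, with RGS proteins and arrestins ending the signal. CCR4, the receptor of CCL17 and CCL22, CCR8, the receptor of CCL1, and CCR3, the receptor of the eotaxins, are known from type 2 inflammation. CXCR6 binds CXCL16, a chemokine held on cell membranes, and is known from T cells that stay in the lung. CCR1 and CCR2 bind the inflammatory chemokines of the CCL3, CCL5 and CCL2 kind and are best known from monocytes. CXCR3, the receptor of CXCL9, CXCL10 and CXCL11, marks type 1 T cells, and CXCR4, the receptor of CXCL12, is used by most resting lymphocytes.

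The promoters of Cxcr6, Ccr4, Ccr8 and Ccr2 are shown because these 4 genes rose most in lung Th2 cells. Each window runs from 250 bases before to 50 bases after the start of the gene, 5′ to 3′ along the gene, from RefSeq on build GRCm38.p6, where all 8 members were found. Capitals mark matches to the motif letters described next.
Cxcr6, chr9:123806227-123806526, plus strand: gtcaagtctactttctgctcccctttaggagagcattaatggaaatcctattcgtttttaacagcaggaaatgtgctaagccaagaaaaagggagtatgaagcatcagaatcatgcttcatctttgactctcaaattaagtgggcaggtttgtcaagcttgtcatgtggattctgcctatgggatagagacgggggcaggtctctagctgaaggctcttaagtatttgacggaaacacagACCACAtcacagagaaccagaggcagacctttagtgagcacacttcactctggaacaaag
Ccr4, chr9:114496495-114496794, minus strand: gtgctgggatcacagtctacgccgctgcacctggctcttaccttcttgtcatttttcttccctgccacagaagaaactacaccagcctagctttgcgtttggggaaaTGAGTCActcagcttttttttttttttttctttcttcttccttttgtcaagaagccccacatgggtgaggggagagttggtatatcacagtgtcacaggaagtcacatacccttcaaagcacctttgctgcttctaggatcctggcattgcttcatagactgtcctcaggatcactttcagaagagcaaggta
Ccr8, chr9:120091883-120092182, plus strand: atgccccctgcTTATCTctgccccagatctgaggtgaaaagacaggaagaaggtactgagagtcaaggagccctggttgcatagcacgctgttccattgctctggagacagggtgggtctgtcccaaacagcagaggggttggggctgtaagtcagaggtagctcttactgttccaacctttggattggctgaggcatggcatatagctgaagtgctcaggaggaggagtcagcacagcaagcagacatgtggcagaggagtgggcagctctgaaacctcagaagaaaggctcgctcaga
Ccr2, chr9:124101933-124102232, plus strand: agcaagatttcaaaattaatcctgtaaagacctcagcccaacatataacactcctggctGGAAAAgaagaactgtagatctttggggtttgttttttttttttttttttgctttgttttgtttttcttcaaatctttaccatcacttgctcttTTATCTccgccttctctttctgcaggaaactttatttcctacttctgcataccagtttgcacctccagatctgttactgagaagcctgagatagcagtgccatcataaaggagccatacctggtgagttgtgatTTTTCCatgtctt

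5 motifs of transcription factors known in Th2 and activated T cells were searched on both strands of 32851 promoter windows of the same length, and no match in a member overlapped another. The AP-1 letters TGANTCA stood in 2 of 8 members, Ccr4 and Ccr3, and in 7.81% of all windows. In both of those genes the match began near the same place, at position -143 in Ccr4 and -144 in Ccr3, counted from the start of the gene. The GATA letters AGATAA stood in Ccr2, Ccr3 and Ccr8, 3 of 8 members against 11.2% of windows. The NFAT letters GGAAAA stood in Ccr2 and Ccr3, against 23.4% of windows. The RUNX letters TGTGGT stood in Ccr1, Cxcr3 and Cxcr6, against 16.8%. The STAT6 motif stood in 0 of 8 members and in 6.95% of windows. A match describes letters and not a bound site. Cxcr4 held none of the 5 motifs in its window.

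Before the receptors are compared, 2 arrays need a word. Naive replicate 1 stood apart from naive replicates 2 and 3: Il2, a cytokine gene that T cells switch on when stimulated, was at a log2 level of 5.07 there against a mean of 11.30 on the other naive arrays. The levels of Il2 and Ccl3 on that array lay under the background mark given below, which goes against the stimulation its label gives. Its log2 levels of Il2ra (9.39 against a mean of 12.23), Ccl3 (5.54 against 11.36) and Rgs16 (8.10 against 11.04) were lower too. Chronic Th2 replicate 3 had a Pearson correlation across genes of 0.991 with acute Th2 replicate 3, and of 0.980 and 0.985 with the other chronic arrays. Results of the 8 receptors that rest on either array are given with and without it, as are the counts of the chemokine system lists that change without naive replicate 1. Intervals of the differences between stages are given on all arrays alone. The background was set by 1015 olfactory receptor genes, taken as genes without a known role in T cells. The 95th percentile of their mean levels was 6.53, and a level under it cannot be told from background. Of the T cell markers 8 of 8 measured lay above it in every group, and Cd44 rose by 1.93 in acute and 1.89 in chronic Th2 cells. Cd69, on which the Th2 cells were sorted, had means of 11.62 in naive, 11.12 in acute and 10.53 in chronic cells, with differences from naive cells of -0.51 (adjusted p = 0.683) and -1.09 (adjusted p = 0.158). Cd4 differed by 0.35 (adjusted p = 0.689) and -0.19 (adjusted p = 0.698), and the sort marker gene Il1rl1 is not analysed here. These differences of Cd69 and Cd4 are on all arrays and depend on naive replicate 1. Cd69 was at 10.59 on that array, at 12.08 and 12.20 on naive replicates 2 and 3, and at most 11.34 on the Th2 arrays. Cd4 was at 10.81 on naive replicate 1 against a mean of 9.54 on the other naive arrays.

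**Figure D1:**
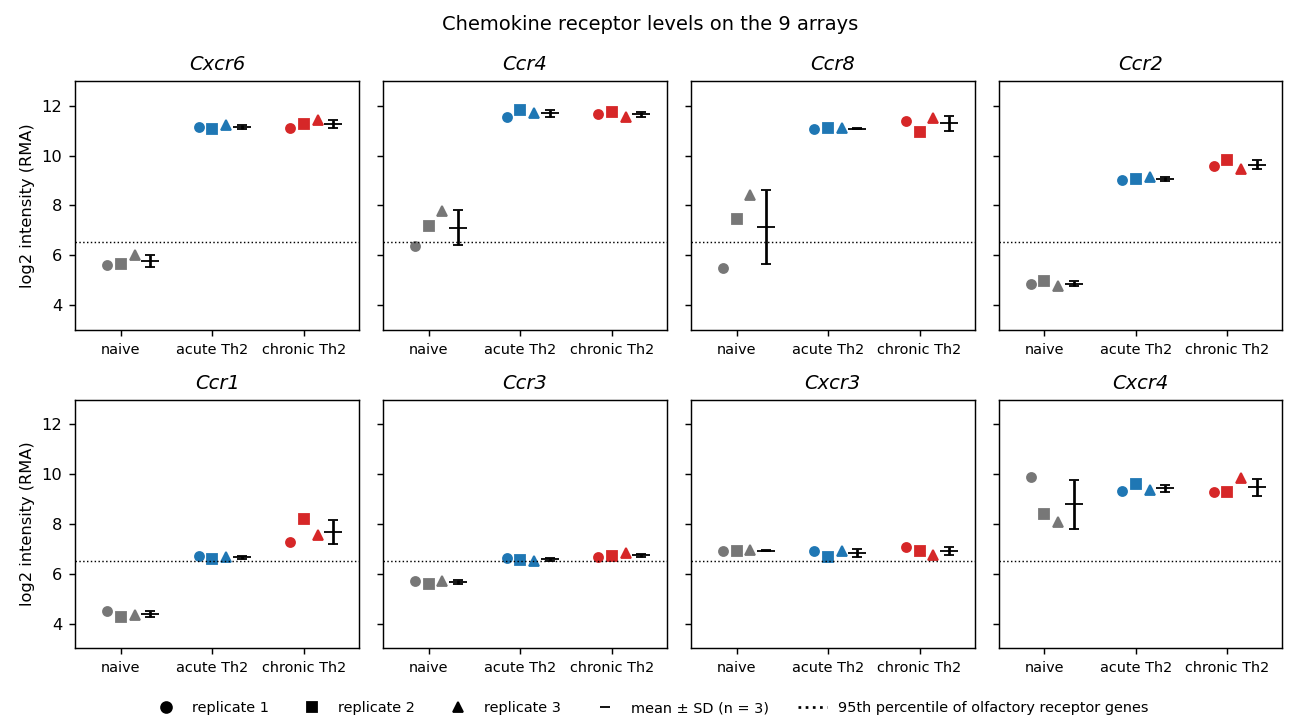
Log2 intensity of each receptor gene (vertical axis) on the 3 naive, 3 acute Th2 and 3 chronic Th2 arrays, with the mean and SD of each group and the background mark of 6.53 as a dotted line. Cxcr6, Ccr4, Ccr8, Ccr2, Ccr1 and Ccr3 lie higher on all 6 Th2 arrays than on any naive array, Cxcr3 lies at one level throughout, and the naive levels of Ccr8, Ccr4 and Cxcr4 spread widely.

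Lung Th2 cells of acute inflammation were set against naive cells to see which receptors distinguish them. Of the 8 receptor genes, 6 rose and 0 fell at an adjusted p under 0.05, namely Cxcr6, Ccr4, Ccr2, Ccr8, Ccr1 and Ccr3, with Cxcr3 and Cxcr4 not passing the test. In such bulk samples fewer cells of a type and less RNA per cell cannot be told apart. Over all genes, 5.87% were called, 3.67% higher and 2.20% lower. On all 3 acute arrays the same 6 members lay above all 3 naive arrays, as 8.80% of all genes did, and 6 passed an unadjusted p under 0.05, as 16.3% of all genes did. The median log2 difference was 3.13 over the 8 members and -0.03 over all genes. In chronic Th2 cells the same 6 genes rose and 0 fell, where 7.88% of all genes were called, 3.68% higher and 4.20% lower. They were again the 6 members whose arrays lay wholly above the naive ones, as 15.6% of all genes did, and the 6 with an unadjusted p under 0.05, as 25.6% of all genes had. The members' median was 3.74 there, and that of all genes 0.04. Both comparisons use the same 3 naive arrays and are therefore not independent of each other. The members were chosen with earlier results of these data known, so their counts beside those of all genes are a description and not a test.

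Cxcr6, the receptor of the membrane-bound chemokine CXCL16, rose most among the members. Its log2 level was 5.61, 5.66 and 6.03 on naive replicates 1, 2 and 3. It was 11.17, 11.08 and 11.25 on the acute Th2 arrays and 11.13, 11.26 and 11.43 on the chronic ones. The 6 Th2 arrays lay close together and far above every naive one. The log2 difference was 5.39 (SE 0.13, adjusted p = 1.72e-07) in acute Th2 cells, a 42.0-fold difference of intensity, which ranked 10 among 19937 genes. In chronic Th2 cells it was 5.51 (SE 0.13, adjusted p = 8.23e-08), ranked 9. The naive mean of 5.77 ± 0.23 (SD, n = 3) lay under the background mark, so the size is that of intensities and may differ from that of RNA.

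Ccr4, the receptor of CCL17 and CCL22, reached the highest level of the members, although levels of different probe sets are not comparable as amounts of RNA. Its log2 level was 6.37, 7.19 and 7.76 on the naive arrays, 11.55, 11.82 and 11.73 on the acute and 11.66, 11.77 and 11.55 on the chronic arrays. The Th2 arrays lay within a narrow band far above all naive arrays, which were themselves spread out. In acute Th2 cells Ccr4 rose by 4.59 log2 units (SE 0.29, adjusted p = 3.31e-05) and in chronic ones by 4.56 (adjusted p = 3.54e-05), or 24.1-fold and 23.5-fold. Without naive replicate 1 the acute rise was 4.22 (SE 0.17, adjusted p = 9.27e-07). The chronic rise ran from 4.19 to 4.88 over 18 alternatives, which include leaving out that array.

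Ccr8, the receptor of CCL1, had log2 levels of 5.50, 7.46 and 8.41 on naive replicates 1, 2 and 3. They were 11.06, 11.11 and 11.10 on the acute and 11.39, 10.97 and 11.53 on the chronic Th2 arrays. The acute arrays had an SD of 0.02, whereas the naive SD of 1.48 was larger than that of 99.6% of all genes. Ccr8 rose by 3.97 (SE 0.60, adjusted p = 0.00533) in acute and by 4.18 (adjusted p = 0.00396) in chronic Th2 cells. Without naive replicate 1 the rise was 3.16 (SE 0.26, adjusted p = 8.06e-05) and 3.37 (adjusted p = 5.17e-05).

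Ccr3, the eotaxin receptor best known from eosinophils, changed little in size. Its log2 level was 5.72, 5.58 and 5.70 on the naive, 6.64, 6.56 and 6.53 on the acute and 6.69, 6.71 and 6.82 on the chronic arrays. The groups did not overlap, and the naive mean lay under the background mark. The rise was 0.91 (SE 0.08, adjusted p = 0.000237) in acute and 1.08 (adjusted p = 9.16e-05) in chronic Th2 cells, or 1.88-fold and 2.11-fold. On its array Ccr3 stood above 73.3 to 77.4% of olfactory receptor genes in naive cells, 94.6 to 96.6% in acute and 86.1 to 96.7% in chronic Th2 cells, so that its level stayed near the upper edge of the background. Olfactory receptor genes themselves had a median difference of 0.01 in acute and 0.34 in chronic Th2 cells against naive cells. Of 7 eosinophil markers measured, 0 were called in either comparison and 6 had means under 6.53 in each group. Their summed log2 level was 8.67 to 8.82 on naive, 8.62 to 8.83 on acute and 8.81 to 8.94 on chronic arrays.

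Ccr2, the receptor of CCL2, was at background in naive cells, at 4.86, 4.96 and 4.76. It stood at 9.01, 9.05 and 9.13 on the acute and at 9.59, 9.83 and 9.48 on the chronic Th2 arrays. The 3 groups did not overlap, and the order was naive, acute, chronic. Ccr2 rose by 4.20 (SE 0.11, adjusted p = 1.74e-07) in acute and by 4.77 (adjusted p = 8.23e-08) in chronic Th2 cells, or 18.4-fold and 27.3-fold in intensity.

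Ccr1, the receptor of CCL3 and CCL5, followed the same order of groups. It was at 4.52, 4.27 and 4.33 on the naive, 6.71, 6.60 and 6.68 on the acute and 7.29, 8.20 and 7.55 on the chronic arrays. Naive levels were at background and acute levels just above the mark of 6.53. The chronic SD of 0.47 was larger than that of 98.1% of genes. Ccr1 rose by 2.29 (SE 0.20, adjusted p = 0.000263) in acute and by 3.31 (adjusted p = 2.77e-05) in chronic Th2 cells. Both CCR1 and CCR2 are also known from monocytes: of 11 macrophage and monocyte markers measured, 0 were called against naive cells and 10 had means under 6.53 in every group. The summed log2 level of that list was 9.63 to 9.72 on naive, 9.51 to 9.60 on acute and 9.65 to 9.69 on chronic arrays.

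Cxcr3, the type 1 receptor, did not pass the test in any comparison. Its log2 level was 6.90, 6.92 and 6.96 on the naive, 6.93, 6.66 and 6.92 on the acute and 7.06, 6.92 and 6.76 on the chronic arrays. All 9 arrays lay just above the background mark, and the groups overlapped. On its array Cxcr3 stood above 97.9 to 98.5% of olfactory receptor genes in naive, 97.3 to 98.2% in acute and 94.3 to 96.5% in chronic Th2 cells. The difference was -0.09 (95% confidence interval -0.33 to 0.15, adjusted p = 0.805) in acute and -0.01 (-0.26 to 0.23, adjusted p = 0.939) in chronic Th2 cells.

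Cxcr4, the CXCL12 receptor, was well above background in all 3 groups and did not pass the test. Naive replicate 1 had a log2 level of 9.89, against 8.41 and 8.06 on naive replicates 2 and 3. The acute arrays had 9.32, 9.60 and 9.37 and the chronic arrays 9.27, 9.27 and 9.86. Naive replicate 1 was thus the highest of all 9 arrays, and naive replicates 2 and 3 the lowest. The difference was 0.64 (95% confidence interval -0.30 to 1.59, adjusted p = 0.548) in acute and 0.68 (-0.27 to 1.62, adjusted p = 0.323) in chronic Th2 cells. Without naive replicate 1, Cxcr4 rose by 1.20 (SE 0.19, adjusted p = 0.00406) and 1.23 (adjusted p = 0.00294). The members called were then 7 of 8 in each comparison, and the genes called in either direction went from 1171 to 2424 in acute and from 1571 to 3438 in chronic Th2 cells.

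**Figure D2:**
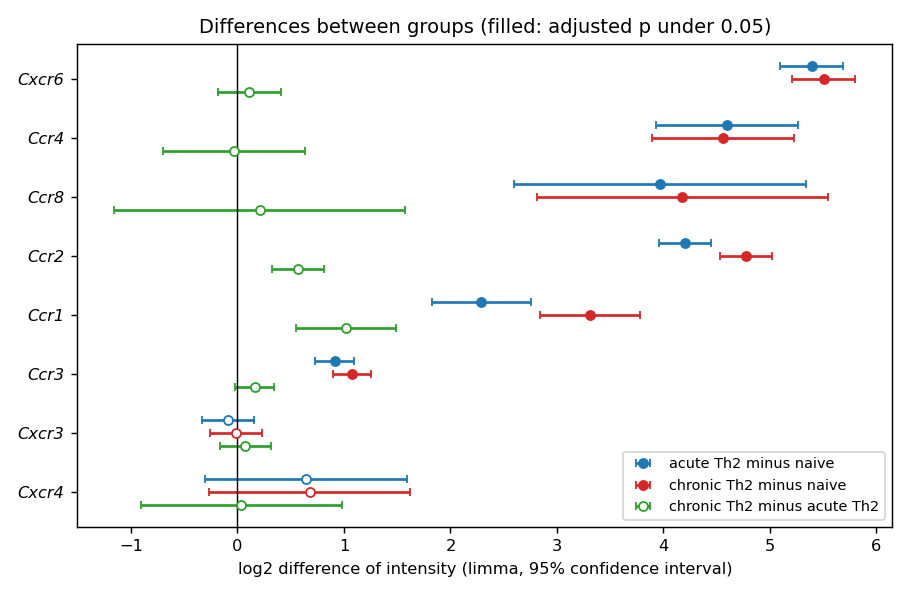
Log2 difference of intensity with its 95% confidence interval (horizontal axis) for each receptor gene in the 3 comparisons, where a filled point passed an adjusted p of 0.05. Cxcr6 differs most from naive cells, by 5.39 and 5.51, the intervals of Cxcr3 and Cxcr4 include 0 in all comparisons, and no point of the comparison between both Th2 groups is filled.

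The gap between naive replicate 1 and the mean of naive replicates 2 and 3 was -2.43 log2 units for Ccr8, larger in size than for 99.6% of genes. It was -1.11 for Ccr4 (93.4% of genes) and 1.66 for Cxcr4 (97.7%). Ccr8 and Ccr4 were therefore low, and Cxcr4 high, on the array on which Il2, Ccl3, Rgs16 and Il2ra were low. For Ccr2 the gap was 0.00, and for Cxcr6 it was -0.23. The part of these stimulation genes in the receptor levels was not tested.

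**Figure D3:**
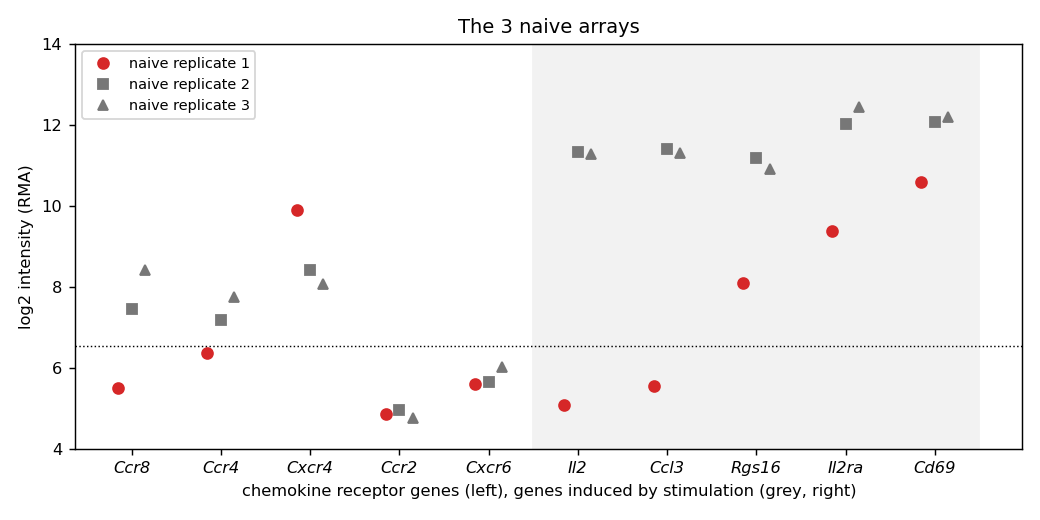
Log2 intensity (vertical axis) on the 3 naive arrays of 5 receptor genes and, on grey, of 5 genes induced by T cell stimulation, with the background mark of 6.53 as a dotted line. Naive replicate 1, in red, lies lowest for Ccr8 (5.50), Ccr4 (6.37) and Il2 (5.07) and highest for Cxcr4 (9.89).

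Chronic and acute Th2 cells were compared to see which receptors differ between the stages of disease. At an adjusted p under 0.05, 0 of 8 members were called by limma, where 0.0301% of all genes were called, 3 genes (0.0150%) higher and 3 (0.0150%) lower. At an unadjusted p under 0.05, 2 of 8 members passed, where 14.9% of all genes did. Those 2 were Ccr1, with a log2 difference of 1.02 (95% confidence interval 0.55 to 1.48, unadjusted p = 0.00089, adjusted p = 0.301), and Ccr2, with 0.57 (0.33 to 0.81, unadjusted p = 0.000552, adjusted p = 0.301). Ccr1 had the difference ranked 13 among 19937 genes. On all 3 chronic arrays Ccr1, Ccr2 and Ccr3 lay above all 3 acute arrays, as 11.8% of all genes did. The median difference of olfactory receptor genes between these groups was 0.33, with a 95th percentile of 0.68, and the part of this background in the receptor differences was not tested. Ccr3, at 0.16 (-0.02 to 0.35, adjusted p = 0.358), moved less than that median.

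Leaving out chronic Th2 replicate 2, on which Ccr1 was highest, gave a Ccr1 difference of 0.76 (adjusted p = 0.508). With naive replicate 1 and chronic Th2 replicate 3 both left out, Ccr1 differed by 1.08 (adjusted p = 0.0398) and Ccr2 by 0.64 (adjusted p = 0.029), in a fit that called 1087 genes, or 5.45%. Weighting arrays by their quality gave 1.25 (adjusted p = 0.0046) for Ccr1, 0.61 (adjusted p = 0.00487) for Ccr2 and 0.18 (adjusted p = 0.0367) for Ccr3, in a fit that called 6721 genes, or 33.7%.

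The other receptors had differences between stages near 0, with intervals of unequal width. Cxcr6 differed by 0.11 (-0.18 to 0.41, adjusted p = 0.654) and Cxcr3 by 0.08 (-0.17 to 0.32, adjusted p = 0.717). Ccr4 differed by -0.04 (-0.70 to 0.63, adjusted p = 0.956) and Cxcr4 by 0.03 (-0.91 to 0.98, adjusted p = 0.972). For Ccr8, at 0.21 (-1.16 to 1.58, adjusted p = 0.865), the interval includes a change of 1 log2 unit in either direction. The spread of the naive arrays enters these intervals through the shared error estimate. All intervals are those of limma over 9 arrays.

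Among marker lists of other cells, those of regulatory T cells and group 2 innate lymphoid cells moved with the Th2 groups. Each of the other such lists had 0 or 1 genes called in a comparison with naive cells. Of 7 markers of regulatory T cells, which are known to carry CCR4 and CCR8, 4 rose and 0 fell in each comparison with naive cells. Over all genes, 3.67% were called higher in acute and 3.68% in chronic Th2 cells. Without naive replicate 1, 5 rose and 0 fell in acute and 5 rose and 1 fell in chronic Th2 cells, in fits that called 12.2% and 17.2% of all genes. Lrrc32, of the same list, had means of 8.18 in naive, 8.53 in acute and 7.46 in chronic cells on all arrays. Foxp3, their lineage factor, rose by 1.41 in acute (adjusted p = 0.00148) and by 1.13 in chronic Th2 cells (adjusted p = 0.00502), from a naive level of 8.96 to 9.26. The summed log2 level of that list was 11.27 to 12.97 on naive, 14.19 to 14.22 on acute and 14.26 to 14.32 on chronic arrays, and 0 of its 7 genes lay under 6.53 in any group. Of 4 markers of group 2 innate lymphoid cells, 3 rose in each comparison, and their summed log2 level was 8.15 to 8.68, 10.53 to 10.72 and 10.18 to 10.51 in the 3 groups. The part of either cell type in the receptor levels was not tested.

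The other genes of the chemokine system were taken as 6 lists, which were also chosen with earlier results of these data known. Among 14 other chemokine receptors measured, 0 rose and 1 fell in acute, and 1 rose and 1 fell in chronic Th2 cells. Over all genes, 5.87% were called in acute and 7.88% in chronic Th2 cells. Ccr7, which guides naive T cells into lymph nodes, fell by 1.90 in acute (SE 0.26, adjusted p = 0.00339) and by 2.15 in chronic Th2 cells (adjusted p = 0.00174). Its log2 level was 11.76, 10.91 and 11.28 on the naive arrays. It was 8.96, 9.67 and 9.62 on the acute and 8.90, 9.13 and 9.47 on the chronic arrays, with no overlap with the naive ones. Of all genes, 10.9% lay wholly below the naive arrays in acute and 12.3% in chronic Th2 cells. Cx3cr1, the fractalkine receptor, had a difference of 0.09 (adjusted p = 0.87) in acute and rose by 0.64 (adjusted p = 0.0313) in chronic Th2 cells, a call lost when naive replicate 2, acute Th2 replicate 3 or chronic Th2 replicate 1 or 2 was left out. The highest adjusted p over the alternatives was 0.125. In the same comparison olfactory receptor genes had a median difference of 0.34 and a 95th percentile of 0.76, above the difference of Cx3cr1. The list's median was 0.06 in acute and 0.17 in chronic Th2 cells.

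Of all genes, 5.87% were called in acute and 7.88% in chronic Th2 cells. Among 20 ligands of the members, 1 rose and 0 fell in each comparison with naive cells. This was Ccl1, the ligand of CCR8, at 7.14, 6.69 and 6.82 on the naive, 10.28, 10.17 and 9.85 on the acute and 9.34, 8.83 and 9.79 on the chronic arrays. Ccl1 rose by 3.22 (SE 0.24, adjusted p = 7.65e-05) in acute and by 2.44 (adjusted p = 0.000419) in chronic Th2 cells. All 3 chronic arrays lay below all 3 acute arrays, as those of 10.8% of all genes did. The difference of -0.78 (-1.32 to -0.25) did not pass the test (adjusted p = 0.322). Without naive replicate 1, 1 ligand rose and 2 fell in acute, and 2 rose and 2 fell in chronic Th2 cells. Those fits called 12.2% and 17.2% of all genes. Ccr8 and its ligand gene Ccl1 were thus both higher in lung Th2 cells than in naive cells. The list's median was 0.04 in acute and 0.21 in chronic Th2 cells.

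Among 15 receptors of other attractants and of tissue exit, 4 rose and 0 fell in each comparison. Over all genes, 3.67% were called higher in acute and 3.68% in chronic Th2 cells. Without naive replicate 1, 3 of these receptors rose and 1 fell in acute, and 5 rose and 1 fell in chronic Th2 cells. Those fits called 12.2% and 17.2% of all genes. The gene that fell then was Gpr174, a lysophosphatidylserine receptor, with -1.03 (adjusted p = 0.0248) and -1.53 (adjusted p = 0.00297), against -0.70 (adjusted p = 0.318) and -1.21 (adjusted p = 0.052) on all arrays. Cysltr1 and Cysltr2, the receptors of the cysteinyl leukotrienes of allergic airways, rose by 3.50 and 3.63 in acute (adjusted p = 3.17e-06 for both) and by 3.40 and 3.22 in chronic Th2 cells (adjusted p = 3.85e-06 and 6.42e-06). The naive means of both, and those of Ltb4r1 and Gpr15, lay under 6.53, so these sizes are those of intensities. The arrays of Cysltr1 ran from 5.59 to 5.89 in naive and from 9.04 to 9.52 in both Th2 groups. Ltb4r1, the leukotriene B4 receptor, rose by 0.87 (adjusted p = 0.03) and 0.81 (adjusted p = 0.0346), and Gpr15, a gut homing receptor, by 0.49 (adjusted p = 0.0485) and 0.62 (adjusted p = 0.0161). Gpr15 had means of 5.86, 6.36 and 6.49 in naive, acute and chronic cells, all under 6.53, and its chronic difference lay under the 95th percentile of 0.76 of olfactory receptor genes in that comparison. Both calls of Ltb4r1 were made in 12 of 18 alternatives. Among others, the acute call was lost without naive replicate 2, acute Th2 replicate 1 or 2, or chronic Th2 replicate 1 (highest adjusted p over the alternatives 0.0917), and its chronic call without naive replicate 2, acute Th2 replicate 2, or chronic Th2 replicate 1 or 2 (highest 0.119). The acute call of Gpr15 was lost without any 1 of the arrays other than naive replicate 3 (highest 0.186), and its chronic call without chronic Th2 replicate 2 (highest 0.0638). The list's median was 0.02 in acute and 0.21 in chronic Th2 cells.

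Of 29 genes of G protein and arrestin signalling measured, 4 rose and 0 fell in acute, and 4 rose and 3 fell in chronic Th2 cells. The share called over all genes was 5.87% in acute and 7.88% in chronic Th2 cells. Gng2, a G protein gamma subunit, rose by 1.49 and 1.23, Tiam1, which activates the GTPase Rac, by 1.22 and 1.24, and Gnaq, a G protein alpha subunit, by 1.01 and 1.09. Elmo1, a partner of Rac activators, rose by 0.81 (adjusted p = 0.0334) and 0.83 (adjusted p = 0.0268), the acute call being lost without any 1 array other than naive replicate 1 (highest adjusted p over the alternatives 0.125) and the chronic call without naive replicate 2 or 3, acute Th2 replicate 2 or 3 or any chronic array (highest 0.105). Arhgef1, a guanine nucleotide exchange factor, fell by 1.41 in chronic Th2 cells (adjusted p = 0.0449), a call made in 9 of 18 alternatives and lost, among others, without any 1 of the Th2 arrays (highest 0.174). Rapgef1 also fell in chronic Th2 cells, by 0.78 (adjusted p = 0.00807), a call made in 18 of 18 alternatives (highest 0.0442). Its log2 difference ran from -0.99 to -0.34 over these alternatives, so the size of the fall was less steady than the call. Of 13 RGS genes, 1 rose and 1 fell in acute, and 2 rose and 2 fell in chronic Th2 cells. Again, 5.87% and 7.88% of all genes were called. Rgs1, which shortens chemokine receptor signals, rose by 2.80 (SE 0.20, adjusted p = 6.54e-05) and 2.89 (adjusted p = 5.65e-05), from naive levels of 9.44, 8.63 and 9.02. Rgs3 fell by 0.94 (adjusted p = 0.0367) and 1.32 (adjusted p = 0.00725), the acute call being lost without naive replicate 3 or any 1 of the Th2 arrays (highest 0.176), and the chronic call with the mean of a gene's probe sets (adjusted p = 0.0509). In chronic Th2 cells Rgs9 rose by 0.66 (adjusted p = 0.0229), lost without naive replicate 2 or chronic Th2 replicate 1 (highest 0.093), and Rgs19 fell by 0.77 (adjusted p = 0.0129), lost without chronic Th2 replicate 1 or 2 (highest 0.0581). The naive mean of Rgs9, 6.24, lay under 6.53, and its difference under the 0.76 of olfactory receptor genes. Without naive replicate 1, the G protein list had 10 genes higher and 4 lower in acute and 11 higher and 6 lower in chronic Th2 cells, in fits that called 12.2% and 17.2% of all genes. Without that array the RGS list had 3 higher and 1 lower in acute and 4 higher and 2 lower in chronic Th2 cells. Of 6 genes of sulfation, not all of them particular to receptors, 0 were called by limma. At an unadjusted p under 0.05, 0 passed in acute and 2 in chronic Th2 cells, where 16.3% and 25.6% of all genes did. Ust, a sulfotransferase, had 0.23 in acute (adjusted p = 0.8) and 0.88 in chronic Th2 cells (adjusted p = 0.0825), and without naive replicate 1 the latter was 1.13 (adjusted p = 0.00949). Papss1 and Papss2, which make the sulfate donor, had -0.36 (adjusted p = 0.513) in acute and 0.45 (adjusted p = 0.131) in chronic Th2 cells. Between chronic and acute Th2 cells, 0 genes of these 6 lists were called by limma, where 0.0301% of all genes were. At an unadjusted p under 0.05, 1 to 4 genes of a list passed, where 14.9% of all genes did.

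**Figure D4:**
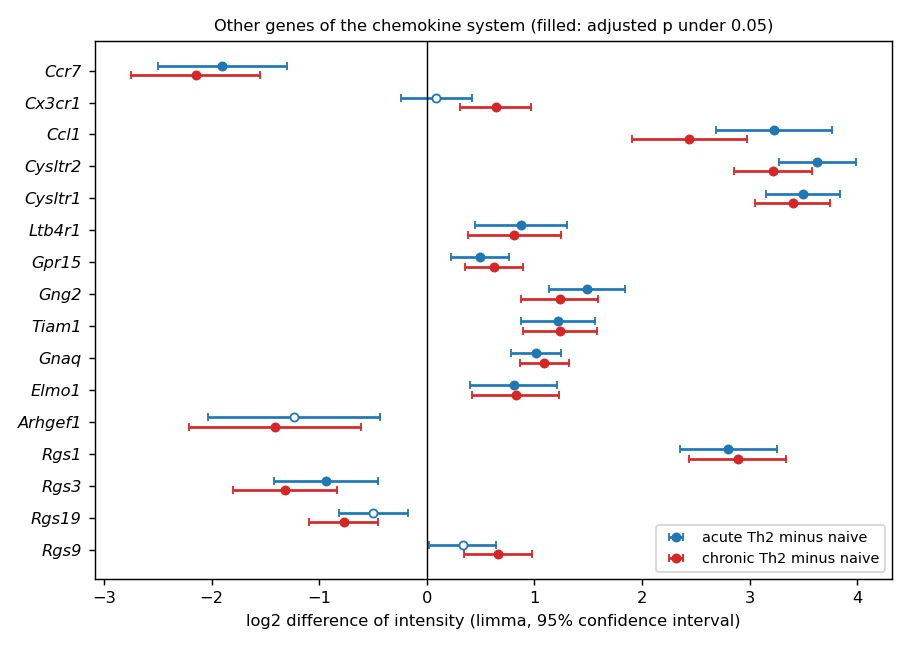
Log2 difference of intensity with its 95% confidence interval (horizontal axis) for named genes of the chemokine system outside the 8 receptors, against naive cells, where a filled point passed an adjusted p of 0.05. Cysltr1, Cysltr2, Ccl1 and Rgs1 rise most and Ccr7 falls by 1.90 and 2.15.

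The genes most like each member over the 9 arrays were taken as those with the smallest root mean square difference of log2 levels, after each gene was centred on its mean. For Cxcr6 these were Tigit, an inhibitory receptor, at 0.21, Mt2, a metallothionein, at 0.25 and Lilr4b at 0.26. For Ccr2 they were Fgl2 at 0.19, Maf, a transcription factor of cytokine genes, at 0.21 and Ttc39c at 0.26. For Ccr1 they were Tnip3 at 0.22, Erc1 at 0.24 and Ahr, the aryl hydrocarbon receptor, at 0.24. Ahr was at 6.20 to 6.32 on naive arrays, from 8.95 upward on acute arrays and at 9.48 to 9.98 on chronic arrays. Its chronic arrays lay above all acute ones, as those of 11.8% of all genes did. Ahr was picked for its likeness to Ccr1 on these arrays, so their like order follows from the choice. For Ccr4 they were Perp at 0.32, Gcnt1, a glycosyltransferase, at 0.34 and Lilrb4a at 0.35. For Ccr8 they were Cpd, a carboxypeptidase, at 0.34, Icos, a costimulatory receptor, at 0.46 and Sytl3 at 0.55. Cpd, picked in the same way, was also low on naive replicate 1, at 5.59 against 7.89 and 8.04. For Ccr3 they were Naip2 at 0.09, Bcl3 at 0.11 and Med13 at 0.11, a small value that goes with the small span of Ccr3. Among the members, the closest pair was Ccr2 and Ccr4 at 0.44, followed by Ccr4 and Ccr8 at 0.49. Close behind came Ccr3 and Cxcr4 at 0.50, Ccr4 and Cxcr6 at 0.50 and Ccr3 and Cxcr3 at 0.51. Cxcr3 and Cxcr4 did not pass the test while Ccr3 did, so a small value need not mean a shared call.

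The genes of 6 members, Ccr1, Ccr2, Ccr3, Ccr4, Ccr8 and Cxcr6, lie on mouse chromosome 9, Cxcr3 lies on chromosome X and Cxcr4 on chromosome 1. By gene order in RefSeq, chosen for description after the levels were seen, a run of protein-coding genes on chromosome 9 reads Lztfl1, Ccr9, Fyco1, Cxcr6, Xcr1, Ccr1, Ccr1l1, Ccr3 and Ccr2, with Cxcr6 inside Fyco1. The genes between those that rose did not pass the test in acute Th2 cells. Xcr1, the XCL1 receptor of dendritic cells, had a log2 difference of 0.18 (adjusted p = 0.627), Ccr1l1 of 0.30 (adjusted p = 0.462) and Fyco1 of 0.48 (adjusted p = 0.446). In chronic Th2 cells the differences were 0.39 (adjusted p = 0.116), 0.49 (adjusted p = 0.112) and 0.25 (adjusted p = 0.561). Ccr9, a gut homing receptor, had 0.54 (adjusted p = 0.183) and 0.20 (adjusted p = 0.522). Lztfl1, a regulator of transport in cilia, rose by 1.51 (adjusted p = 0.000274) and 1.66 (adjusted p = 0.000157). Along the run, genes that rose were thus interleaved with genes that did not pass the test.

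**Figure D5:**
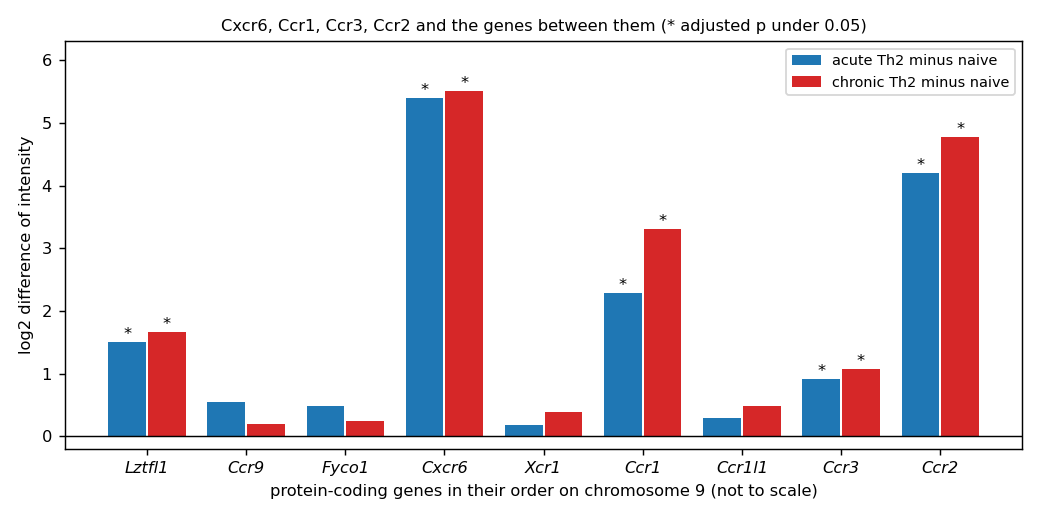
Log2 difference of intensity from naive cells (vertical axis, bars from 0) for the measured protein-coding genes around Cxcr6, Ccr1, Ccr3 and Ccr2 in their order on chromosome 9, where a star marks an adjusted p under 0.05. Cxcr6 (5.39 and 5.51) and Ccr2 (4.20 and 4.77) stand beside genes such as Fyco1 (0.48 and 0.25) and Ccr1l1 (0.30 and 0.49).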

How the data were processed

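Gene expression was measured on 9 arrays of 3 groups, with groups taken from the titles. The deposited values are log2 intensities per probe set, which the authors made with RMA per the submitters' processing notes, which also name limma. Those notes give no versions, and no source here gives the genome build. No further normalisation was applied. Of 34760 probe sets, 21640 name 1 gene, 1321 name several and 11799 have no gene listed; a gene was represented by its probe set of highest mean among those naming it alone, giving 19937 genes. RMA pulls dim probe sets together, which shrinks differences near background, and quantile normalisation hides any change shared by most genes. Precision is limited by there being 3 arrays a group.

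The test was that of limma 3.58.1, run under R 4.3.3 as 1 linear model of all 9 arrays with group as the only term (lmFit, contrasts.fit and eBayes, two-sided), adjusted by Benjamini and Hochberg over 19937 genes and called at an adjusted p under 0.05. The script was tested on simulated data. An exact permutation test of 3 against 3 arrays cannot go below 0.1 and was not used. The members, the 6 pathway lists and the 13 marker lists were chosen with earlier results of these data known. Of their 206 listed symbols, 20 are not analysed here. Genes were named, in part, by a rule: all members, up to 4 called genes per pathway list and comparison by size of difference, or 2 as values where none was called, the sort markers, and the 3 genes most like each member whose group means span over 1. Not all genes so named are printed. Il2, Ccl3, Il2ra, Rgs16, the marker genes with values and the genome neighbours were named after their values were seen. Summed log2 levels are the log2 of summed linear intensities. Scan dates and detection calls were not used. Alternatives were repeat normalisation, centring, a filter on dim genes, probe set averaging, array weights, a trended robust fit, a replicate block, the arrays of a comparison alone, and arrays left out.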

Additional observations from a re-analysis of the deposited data

How the results depend on the processing

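The 6 receptor genes called against naive cells kept their direction and their call under all 18 alternatives in both comparisons. Ccr8 had the weakest calls, with a log2 difference of 3.16 to 4.61 (adjusted p up to 0.0374) in acute and 3.24 to 4.82 (adjusted p up to 0.0375) in chronic Th2 cells. Cxcr4 was called under 3 alternatives: without naive replicate 1, without that array and chronic Th2 replicate 3 (1.20, adjusted p = 0.000671, and 1.04, adjusted p = 0.00208), and with array weights (1.11, adjusted p = 0.0032, and 1.07, adjusted p = 0.01). Members called ranged from 6 to 7 against naive cells when single arrays were left out, and between stages they stayed at 0 (0 to 0). Between stages 3 members were called with array weights, where 33.7% of all genes were, and 2 with both arrays left out, where 5.45% were.

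The count of all genes called moved more. In acute against naive cells it was 1171, and 762 from the 6 arrays of the comparison alone, 4019 with array weights, 2624 without both arrays and 653 to 2424 with 1 array left out. In chronic against naive cells it was 1571, and 686, 4675, 4665 and 734 to 3438 in the same order. Between stages it was 6, and 2, 6721, 1087 and 0 to 12, and 3 with a trended robust fit. With the replicate block the counts were 1261 and 1844 against naive cells and 0 between stages, where 2962 genes had an unadjusted p under 0.05 without the block. Arrays of the same replicate number correlated from -0.09 to 0.57 in their deviations from group means and those of different numbers from -0.56 to 0.44, so the numbers were not taken to pair the arrays. The block changed no call of a member; among the named pathway genes, calls of Ltb4r1 in both comparisons, Elmo1 in acute and Arhgef1 in chronic Th2 cells were not made with it, and those of Gpr174 and Ust in chronic Th2 cells were. The fits on fewer arrays have fewer degrees of freedom. The cause of the other moves was not tested. Levels under 6.53 limit what can be said of Ccr1, Ccr2, Ccr3 and Cxcr6 in naive cells, and of Ccr4 and Ccr8 on naive replicate 1.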

Other observations

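The neighbours of Ccr4 and Ccr8, outside the run of receptor genes on chromosome 9, were looked up after the levels were seen. Beside Ccr4, Glb1, the lysosomal beta-galactosidase, rose by 0.99 in acute (adjusted p = 0.0045) and by 0.91 in chronic Th2 cells (adjusted p = 0.00687), and Cnot10, a subunit of the CCR4-NOT complex, which shares only its name with the receptor, fell by 0.42 (adjusted p = 0.0445) and 0.58 (adjusted p = 0.00912). Tmppe and Trim71, which stand next to Ccr4, had log2 differences of 0.12 (adjusted p = 0.752) and -0.03 (adjusted p = 0.959) in acute Th2 cells. Beside Ccr8, its direct neighbour Cx3cr1 had 0.09 (adjusted p = 0.87) in acute and rose by 0.64 (adjusted p = 0.0313) in chronic Th2 cells. That rise of Cx3cr1 lay under the 95th percentile of 0.76 of olfactory receptor genes, and its call was lost without some single arrays. Slc25a38, on the other side, had -0.09 (adjusted p = 0.873) and -0.06 (adjusted p = 0.797). Further out, Xirp1 had -0.21 (adjusted p = 0.418) and -0.05 (adjusted p = 0.778), and Rpsa -0.11 (adjusted p = 0.86) and -0.62 (adjusted p = 0.0548). Of 18 measured neighbours of the members, 1 rose and 1 fell in acute, and 2 rose and 1 fell in chronic Th2 cells, where 3.67% and 3.68% of all genes were called higher.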
